A study of Mus musculus with 8 samples.

Results

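Accessible chromatin around 10 genes of the Wnt pathway (Wnt4, Fzd1, Fzd4, Sfrp4, Lrp5, Lrp6, Ctnnb1, Lef1, Tcf7l2 and Axin2) was described in mouse granulosa cells, the somatic cells that line the ovarian follicle. The genes are 10 of 21631 protein-coding genes in the RefSeq table of assembly GRCm38.p6. They were chosen by the presence, width and within-list rank of ATAC-seq peaks in the gene body or within 50 kb on either side of it, compared by group. Differences between groups at these genes are therefore descriptions, and no test was made of them. When the peak intervals of all 8 libraries were merged, the windows held 158 of 98245 regions. The region nearest to the inside of a window edge lay 49.9 kb from Axin2 and was held by 1 library, at a rank percentile of 12.5. The nearest region outside an edge lay 53.9 kb from Lrp6 and was held by 4 libraries, at rank percentiles between 28.3 and 80.0.

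Wnt proteins are secreted signals that bind Frizzled receptors and the co-receptors LRP5 and LRP6. In the canonical branch, receptor engagement stops the destruction of β-catenin, which then enters the nucleus and works with factors of the TCF/LEF family. In the ovary, Wnt4 and β-catenin are known for their roles in gonadal development and in follicle growth, and Fzd4, Fzd1 and Sfrp4 are known as genes of the ovulating follicle and the corpus luteum.

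ATAC-seq marks open chromatin as the sequence that a transposase, Tn5, can reach and tag. All mice were 21 days old and had received 5 IU of eCG, the equine gonadotropin also abbreviated PMSG, to stimulate follicle growth, and cells were collected by puncturing the ovaries. In the LH experiment, on wild-type CBA x C57BL/6 F1 mice, 2 libraries titled PMSG came from mice killed 46 h after eCG, and 2 titled hCG from mice then given 5 IU of hCG, the human gonadotropin that mimics the LH surge, and killed 6 h later. In the PR experiment, on strain C.129S7(B6)-Pgrtm1Bwo/OmcJ, 2 wild-type (WT) libraries and 2 PR knockout (KO) libraries, in which Pgr, the progesterone receptor gene, carries a null allele, were all made after hCG. Every library pooled cells of 2 to 3 mice. In the LH experiment the tag for time after hCG reads 0 h where the title says hCG and 6 h where it says PMSG, against titles and source names. Titles were followed here, so each direction between hCG and PMSG rests on them. The PR libraries carry a 6 h tag beside a source name of pre-ovulatory cells.

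The lists held between 55654 and 84313 intervals, covering between 29.8 and 43.9 Mb. WT lists were the longest (80137 and 84313 intervals) and KO 2 the shortest. Sequencing depth is unknown, so a missing interval may be a region below the threshold of that list. At Pgr, the stretch held as 1 interval at the lower-coordinate end of the gene in the 6 other libraries was broken in both KO libraries, by gaps of 272 and 394 bp. Of 9 granulosa markers, Foxl2, Fshr and Gja1 had an interval over the gene start in all 8 libraries, whereas Inha, Nr5a2 and Hsd17b1 had none. Of the 22 markers of other ovarian cell types, 14 had none, among them Ptprc and Adgre1 of blood cells, Pecam1 of endothelium and Zp3 of oocytes. Others of the same cell types had one in all 8: Kdr of endothelium, Acta2 of smooth muscle, Gdf9 of oocytes and Lhcgr, listed under theca. Cyp19a1 had one in all but WT 2 and Amh in hCG 2 alone, while Inhba had one in the 6 libraries made after hCG and in neither PMSG library. Among markers of other cells, Cd68, a macrophage gene, had one in both hCG libraries only. Des, a muscle gene, had one in both hCG and both WT libraries and KO 1, and in neither PMSG library. Cdh5 of endothelium had one in all but KO 2, and Cyp17a1 of theca in PMSG 2 and WT 1 only. Their part in the results was not tested.

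RefSeq promoter sequence of GRCm38.p6 was matched for 7 of the 10 genes by symbol. The 250 bases before 4 starts are shown: Wnt4, where the intervals differ between groups, Fzd1, whose only region lies there, and both starts of Tcf7l2, whose strongest region lies at the inner one, with the first start for comparison. In the Wnt4 sequence (chr4:137277385-137277634, plus strand), capitals mark the 109 bases next to the start that lay inside an interval of both WT libraries and of neither KO library. In the others, capitals mark matches to the motifs searched. These are the Tcf7l2 first start (chr19:55741560-55741809, plus strand), the Tcf7l2 inner start (chr19:55895071-55895320, plus strand) and the Fzd1 start (chr5:4758217-4758466, minus strand).
Wnt4: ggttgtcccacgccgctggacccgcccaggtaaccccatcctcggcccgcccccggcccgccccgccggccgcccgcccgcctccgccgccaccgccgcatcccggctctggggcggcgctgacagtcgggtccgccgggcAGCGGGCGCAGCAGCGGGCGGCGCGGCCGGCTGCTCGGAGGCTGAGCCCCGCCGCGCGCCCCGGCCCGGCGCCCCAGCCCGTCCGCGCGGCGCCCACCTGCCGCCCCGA
Tcf7l2 first start: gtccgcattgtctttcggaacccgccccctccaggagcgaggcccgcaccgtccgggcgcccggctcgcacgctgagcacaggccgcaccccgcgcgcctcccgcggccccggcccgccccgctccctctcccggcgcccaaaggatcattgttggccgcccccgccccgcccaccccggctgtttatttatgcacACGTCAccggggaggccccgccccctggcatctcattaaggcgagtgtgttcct
Tcf7l2 inner start: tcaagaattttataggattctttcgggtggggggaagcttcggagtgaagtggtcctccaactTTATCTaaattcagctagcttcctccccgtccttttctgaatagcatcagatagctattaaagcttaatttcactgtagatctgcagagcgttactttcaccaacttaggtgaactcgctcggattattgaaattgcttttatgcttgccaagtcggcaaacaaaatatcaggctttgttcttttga
Fzd1: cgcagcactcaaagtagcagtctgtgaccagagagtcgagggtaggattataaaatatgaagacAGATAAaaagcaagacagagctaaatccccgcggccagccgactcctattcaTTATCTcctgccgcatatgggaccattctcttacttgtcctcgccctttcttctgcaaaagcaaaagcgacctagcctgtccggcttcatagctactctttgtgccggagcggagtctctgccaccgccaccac
The Wnt4 stretch was 85.2% G and C, against 72.8% before the first and 40.8% before the inner start of Tcf7l2, and 51.2% before Fzd1.

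Each of 6 motifs was searched on both strands in the 12 promoter windows of these 7 genes, with windows running from 250 bases before to 50 after a start. The TCF/LEF word CTTTGAT was in none of the 12 windows and in 3.73% of all 32851 RefSeq windows. AP-1 (TGANTCA, 7.81% of all windows), RUNX (TGTGGT, 16.8%) and NR5A (AAGGTCA, 4.72%) also had no match in the 12. A GATA word (AGATAA or TGATAA) was in 3 of the 12 windows and in 18.6% of all windows. Fzd1 held AGATAA at -186 and its reverse complement TTATCT at -134, counted from the start, and the Tcf7l2 inner start held TTATCT at -187. The other window was that of the Lef1 start at position 131156294, which no library held, with TGATAA at -195 and TTATCT at 17 after the start. The CRE core word TGACGT was in 1 of the 12 windows, as ACGTCA at -54 from the first start of Tcf7l2, and in 7.51% of all windows. A match is a description of the letters, and says nothing of binding.

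A library was said to hold a region if 1 of its intervals overlapped it, and a region was called hCG-only if both hCG libraries and neither PMSG library held it, and likewise for the other groups. Around the 10 genes the LH experiment had 133 regions. Of these, 18 (13.5%) were hCG-only, where 17.7% of all regions of the experiment were, and 10 (7.52%) were PMSG-only, where 10.4% were. All 4 libraries held 74 (55.6%), compared with 49.9% over the whole experiment. With the same number of intervals from every list, taken by fold, 16 of 129 (12.4%) were hCG-only and 11 (8.53%) PMSG-only, beside backgrounds of 15.4% and 13.3%. Where a library had to cover 50% of a region to hold it, 29 of 133 (21.8%) were hCG-only and 11 (8.27%) PMSG-only, beside 23.4% and 11.2%. Both shares lay somewhat below their background in these 3 settings. The settings are cuts of the same regions and do not repeat each other, and the gap was not tested.

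The PR experiment had 151 regions around the same genes, of which 19 (12.6%) were WT-only and 1 (0.662%) was KO-only. Over all regions, 12.1% were WT-only and 0.0842% KO-only, and the KO lists were shorter than the WT lists. With equal list lengths, 6 of 111 regions (5.41%) were WT-only and 4 (3.604%) KO-only, beside 4.24% and 4.16% over all regions. The WT-only share was thus close to its background. Of the 158 regions of the combined experiments, 67 (42.4%) were held by all 8 libraries, where 37.9% of all regions were.

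**Figure D1:**
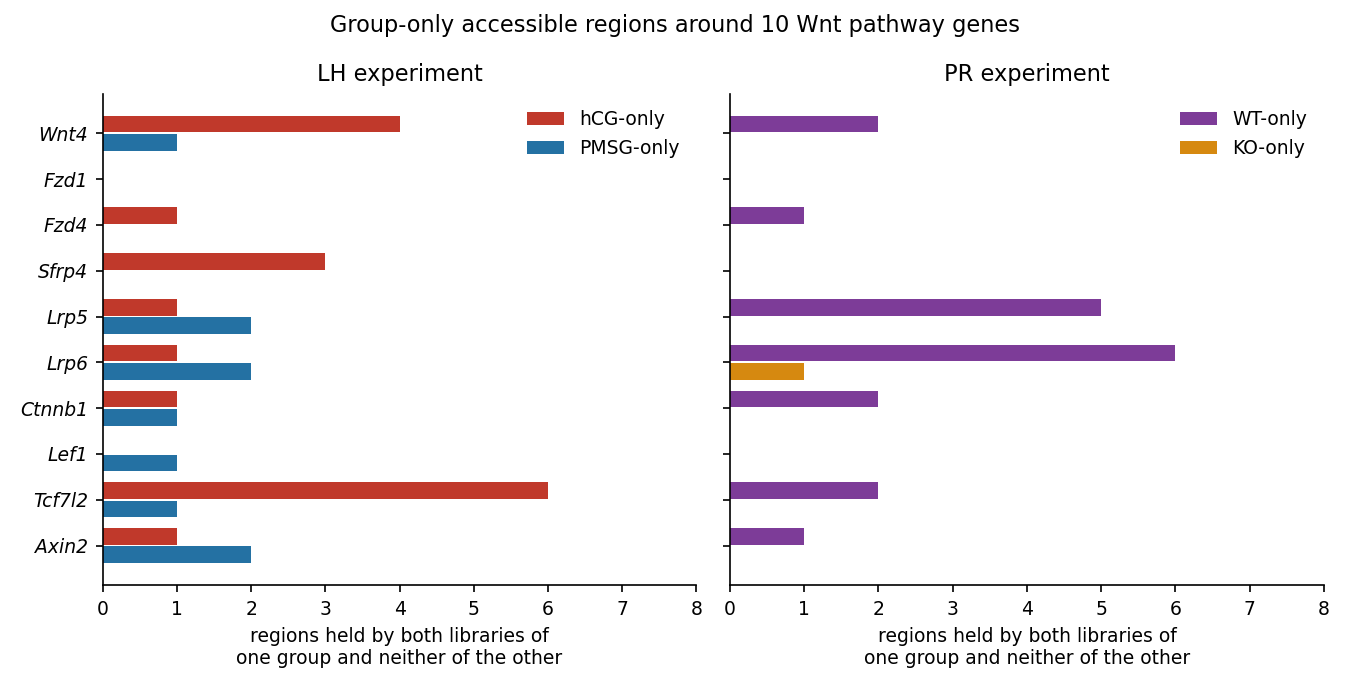
Number of regions held by both libraries of 1 group and neither library of the other (horizontal axis) in the window of each gene (vertical axis), for the LH experiment (left) and the PR experiment (right). Tcf7l2 had 6 hCG-only regions, Wnt4 had 4 and Sfrp4 had 3, while Lrp6 had 6 WT-only regions and Lrp5 had 5 (1 and 4 with equal list lengths).

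By gene, hCG-only regions made up 6 of 30 LH regions around Tcf7l2, 4 of 11 around Wnt4 and 3 of 7 around Sfrp4. There were none among the 11 regions around Lef1 or in the single region of Fzd1. The Tcf7l2 share was near that of all regions. Of the 18, 8 lay inside the body of the member gene, and for 12 the member was the host or nearest gene. In the LH experiment the median width was 438 bp for the hCG-only, 272 bp for the PMSG-only and 727 bp for the regions held by all 4 libraries, where the medians over all such regions were 359, 312 and 745 bp. In the PR experiment it was 176 bp for the WT-only regions and 789 bp for those held by all 4, where the medians over all regions were 234 and 734 bp. Of the 18 hCG-only regions, 14 (77.8%) were held by both WT libraries of the PR experiment and 8 (44.4%) by both KO libraries. Over all hCG-only regions these shares were 78.6% and 41.8%. Of the 10 PMSG-only regions, both WT libraries held 5 and both KO libraries none, beside 43.1% and 15.4% of all PMSG-only regions.

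Wnt4, the ligand of the set, is needed for female gonad development. Its window held 14 regions, 5 of them in all 8 libraries. The strongest, chr4:137234571-137234896, lay 42.9 kb before the start and ranked between 93.8 and 99.3 in all 8 lists, where 100 is the highest fold of a list. It was the same narrow region in every group, at folds over background between 15.1 and 20.8.

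At the Wnt4 start itself, the interval was 1593 and 1444 bp wide in the hCG libraries, 1423 and 1091 bp in PMSG, and 1449 and 1590 bp in WT, and covered the start in all 6. In KO 1 the interval ended 110 bp before the start and a second one began 131 bp after it, at a fold of 2.43, leaving a gap of 240 bp. In KO 2 the interval ended 127 bp before the start, and none followed within 1 kb. Both KO libraries thus lacked the stretch printed in capitals, while their upstream intervals (768 and 710 bp) ranked at 55.9 and 75.7 in their lists. Over 17274 genes with a RefSeq start, 124 (0.718%) had a start held by both WT libraries and neither KO library, and 5 (0.0289%) the reverse. Starts lost in both KO libraries had a median GC content of 58.7%, those held by all 8 libraries 62.3%. The 300 bp window at the Wnt4 start was 84.3% G and C, above both medians, and the part of base composition in the gap was not tested.

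**Figure D2:**
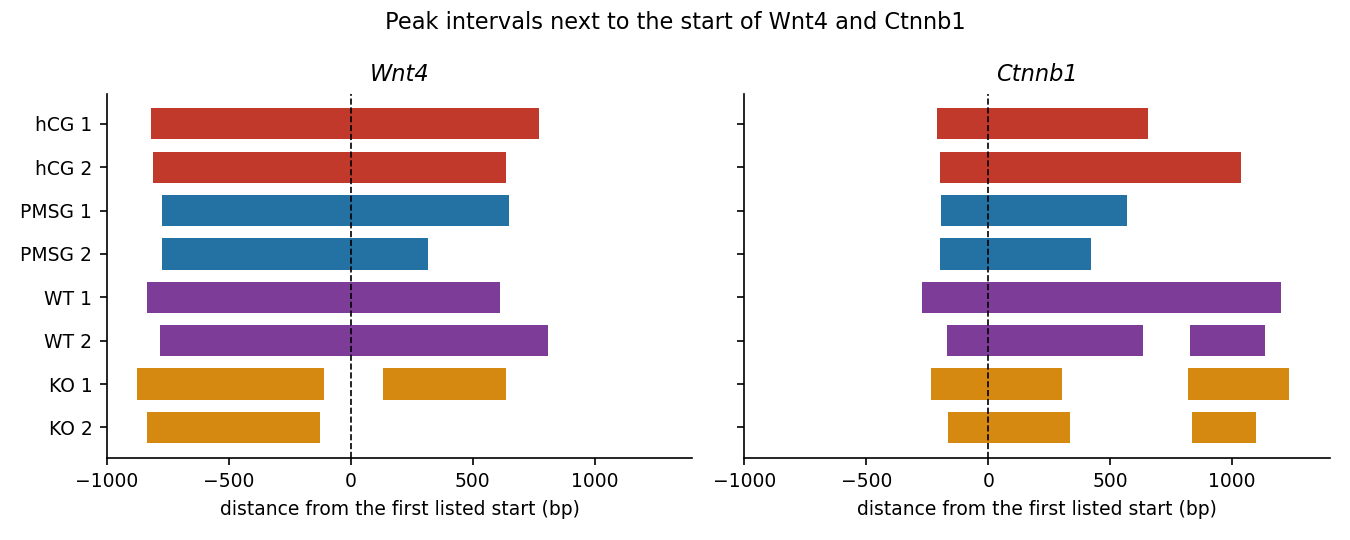
Peak intervals (bars) of the 8 libraries beside the first listed start of Wnt4 (left) and Ctnnb1 (right). The horizontal axis is the distance from the start in bp, the dashed line marks the start, and colours mark the groups. At Wnt4 both KO libraries lack an interval over the start, and at Ctnnb1 the interval over the start is shortest in KO (538 and 501 bp).

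The 4 hCG-only regions around Wnt4 were all weak, with mean rank percentiles between 14.6 and 20.05. One, chr4:137297748-137298088, lay inside the gene, 20.3 kb after the start, and was held by the hCG libraries alone (folds 5.20 and 5.81). Another, chr4:137305649-137306636, lay 6.64 kb beyond the gene and was also held by all 4 PR libraries, at folds between 3.56 and 5.44. The other two lay in the neighbouring gene Cdc42, which encodes a small GTPase, and the higher ranked of them, chr4:137342984-137343404, was held by both WT libraries and KO 1 as well. The PMSG-only region chr4:137331626-137331935, also in Cdc42, ranked at 58.4 and 52.1 in PMSG and was held by WT 1 (22.7) and KO 2 (18.4). The 2 WT-only regions, chr4:137339522-137339668 in Cdc42 and chr4:137308564-137308722, had mean rank percentiles of 14.8 and 6.49, and both hCG libraries held the first.

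The Frizzled receptors had little that was specific to a group. The Fzd1 window held a single region, over its start, in all 8 libraries. Its widths were 1775 and 1673 bp in hCG, 1564 and 1606 bp in PMSG, 1873 and 1927 bp in WT, and 1678 and 1668 bp in KO. The 8 rank percentiles lay between 63.1 and 77.7. Fzd4 had 12 regions, 6 of them in all 8 libraries, and its start was held by all 8 at rank percentiles between 69.6 and 85.4. Its strongest region, chr7:89380735-89381670, lay 23.2 kb before the start, inside the neighbour Tmem135, at rank percentiles between 79.7 and 95.3. Its 1 hCG-only region, chr7:89396491-89396720, was weak (rank percentiles 14.97 and 24.1) and held in the PR experiment by WT 2 only. The WT-only region chr7:89445258-89445439 ranked at 39.9 and 51.3 and was held by hCG 1 as well.

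The co-receptors LRP5 and LRP6 transmit the signal beside a Frizzled receptor. An interval covered the higher-coordinate end of each gene in all 8 libraries, with widths of 892 to 1144 bp at Lrp5 and 1085 to 1500 bp at Lrp6, and none covered the lower end. The table used here gives no start for these genes. Of 22 regions around Lrp5, 10 were held by all 8 libraries, and the strongest of them, chr19:3707871-3708879, lay in the neighbour 1810055G02Rik at rank percentiles between 88.1 and 97.7.

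Lrp5 had 5 WT-only regions (4 with equal list lengths), and 3 of the 5 lay in the gene. The region chr19:3593468-3593888 in the gene was held by both hCG libraries (rank percentiles 47.0 and 45.0) and both WT libraries (54.0 and 62.9), and by no PMSG or KO library. Of the 7 hCG-only regions in the 10 windows that were absent from both KO libraries, it ranked highest. The region chr19:3586662-3586839, also in the gene, was held by both PMSG libraries (45.5 and 77.9) and both WT libraries (60.1 and 61.5), and by no hCG or KO library. The other PMSG-only region, chr19:3736351-3736981, lay at the edge of the window and ranked at 59.2 and 70.9 in PMSG, the highest mean rank of the 10 PMSG-only regions. It was held by WT 1 (69.0) and KO 2 (23.8). A WT-only region outside the gene, chr19:3692579-3692718, ranked at 64.0 and 69.6 in WT and at 69.1 in hCG 1, higher than 97.7% of WT-only regions by mean rank. It was 140 bp wide.

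Lrp6 had 28 regions, 13 of them in all 8 libraries, and its strongest, chr6:134450676-134451273 inside the gene, ranked between 88.0 and 98.3. With equal list lengths its 6 WT-only regions became 1. Of the 6, 5 had mean rank percentiles of 18.97 or less, the highest of these being chr6:134601807-134602065, held by the WT libraries alone. The other, chr6:134425248-134425392 in the neighbour Bcl2l14, was held by all 4 LH libraries (folds between 11.015 and 13.8, widths 357 to 415 bp) and both WT libraries (fold 11.2 in each, widths 138 and 145 bp), and by neither KO library. By mean rank it stood above 98.9% of WT-only regions. The PMSG-only regions of Lrp6 were chr6:134492960-134493571, in the gene, and chr6:134602498-134602850. The first ranked at 44.6 and 43.7 in PMSG and was held by both WT libraries and KO 1, and the second ranked at 14.7 and 19.2 and was held by WT 1 and KO 1. With all deposited peaks, the only KO-only region of the 10 windows, chr6:134443998-134444205, lay 2.38 kb from the lower end of Lrp6 and ranked at 5.93 and 12.04. It was also held by PMSG 1. The hCG-only region chr6:134460956-134461477 ranked at 21.6 and 9.66 in hCG and at 26.2 in WT 1. In WT 2 and both KO libraries it lay under intervals of 948, 1020 and 838 bp that also covered the neighbouring region chr6:134460264-134460764, held by all 8 libraries, so it has no rank of its own there.

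Sfrp4 encodes a secreted Frizzled-related protein, which binds Wnt ligands. Its window held the group-only region with the highest mean rank of the set. All 6 libraries made after hCG held chr13:19604346-19604880, and neither PMSG library did. Its folds were 17.0 and 15.2 in hCG, 17.6 and 16.7 in WT, and 12.3 and 14.3 in KO. The rank percentiles were 98.2 and 93.4 in hCG, 97.1 and 92.4 in WT, and 80.4 and 90.7 in KO, and by mean rank it stood above 99.1% of the 14473 hCG-only regions of the series. It lies 18.6 kb from the lower end of Sfrp4, inside the neighbouring gene Epdr1, so the peak lists do not show which gene it belongs to.

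A second region with the same pattern, chr13:19590876-19591619, lay 31.9 kb from Sfrp4 and 0.461 kb from the lower end of Epdr1. It had folds of 12.5 and 11.988 in hCG, 12.7 and 16.2 in WT, and 12.3 and 10.8 in KO, and no interval in PMSG. By mean rank it stood above 91.4% of hCG-only regions. The third hCG-only region, chr13:19639148-19639368, was weak (rank percentiles 7.77 and 8.25) and absent from all PR libraries. With all deposited peaks no PMSG-only, WT-only or KO-only region lay around Sfrp4, and with equal list lengths 1 was KO-only. The strongest region held by all 8 libraries, chr13:19580229-19581618, was 1287 and 1317 bp wide in hCG and 463 and 618 bp in PMSG, and between 1480 and 1507 bp in WT 2 and the KO libraries. WT 1 had a pair of intervals there, 1343 bp in sum. An interval of 801 to 1140 bp covered the lower end of Sfrp4 in every library, at rank percentiles between 21.2 and 45.6.

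**Figure D3:**
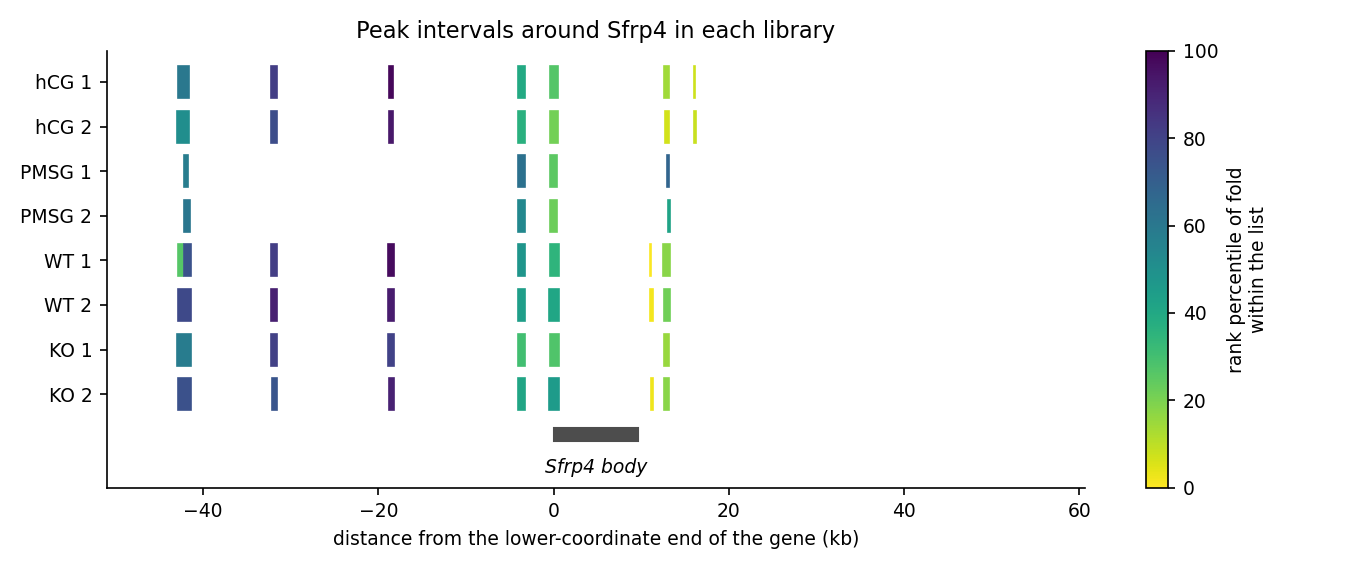
Peak intervals around Sfrp4 in each library (rows), by distance from the lower-coordinate end of the gene in kb, shaded by the rank percentile of the fold within the list. The intervals near -32 and -19 kb are present in the hCG, WT and KO libraries and absent from both PMSG libraries.

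Accordingly, the intervals around Sfrp4 covered 5.14 and 5.13 kb in hCG and 2.36 and 2.38 kb in PMSG, and 5.53 and 5.79 kb in WT and 5.38 and 5.51 kb in KO. Taken as a share of all sequence covered by a library, the mean of the hCG libraries was 1.68 times that of the PMSG libraries, above 97.4% of 18285 genes. The LH groups did not overlap. In the PR experiment the ratio of WT to KO was 0.828.

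Ctnnb1 encodes β-catenin, the effector of the canonical branch. Its window held 16 regions, only 4 of them in all 8 libraries. The interval over the start was 863 and 1234 bp wide in hCG, 759 and 619 bp in PMSG, 1472 and 807 bp in WT, and 538 and 501 bp in KO. The KO intervals were the shortest, and the ratio of the WT to the KO mean, 2.19, was above 99.8% of 9468 genes with a start held in all 8 libraries (median 1.03). Without WT 1 the ratio was 1.55. The interval of WT 1 ran on to 1200 bp after the start, whereas WT 2, KO 1 and KO 2 each had a separate second interval there, beginning between 817 and 836 bp after the start and 260 to 416 bp wide. The folds of these second intervals were between 2.38 and 2.88. Within its own list, the start ranked at 95.6 and 92.7 in PMSG, 68.8 and 70.3 in hCG, 80.1 and 66.1 in WT, and 58.8 and 66.7 in KO.

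A region 6.12 kb before the Ctnnb1 start, chr9:120927083-120927475, was hCG-only. It ranked at 64.9 and 78.4 in hCG, 66.3 and 79.3 in WT, and 52.5 and 14.03 in KO, and stood above 86.1% of hCG-only regions. The 6 libraries after hCG all held it, with KO 2 the lowest (fold 4.74 against 8.68 to 12.99 in the rest). Its PMSG-only region, chr9:120983994-120984195, had a mean rank percentile of 11.4 and was held by both WT libraries and KO 1. Its WT-only regions, chr9:120940540-120940698 and chr9:121008380-121008877, had mean rank percentiles of 13.2 and 5.11.

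Axin2 encodes a scaffold of the β-catenin destruction complex and is itself a common target of the pathway. Its start interval was 1975 and 2106 bp wide in hCG and 1136 and 1097 bp in PMSG, a ratio of means of 1.83 that was above 95.9% of genes (median 1.16). In the PR experiment the widths were 1458 and 1276 bp in WT and 1954 and 1200 bp in KO, and the groups overlapped. The difference between the LH groups lay on the side of the gene, where the intervals ended 1701 and 1807 bp after the start in hCG and 890 and 832 bp after it in PMSG.

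Upstream of Axin2, regions of opposite pattern lay side by side. The region chr11:108897854-108899262, 21.8 kb before the start, was hCG-only and held by all 4 PR libraries, at rank percentiles of 36.6 and 49.0 in hCG, 35.0 and 53.3 in WT, and 30.0 and 38.9 in KO. The PMSG-only regions chr11:108900845-108901031 and chr11:108902693-108902970 lay 19.4 and 17.5 kb before the start. The first ranked at 25.02 and 41.9 in PMSG, was held by both WT libraries (18.7 and 5.58) and was absent from both KO libraries, which makes it the WT-only region of Axin2 as well. The second ranked at 15.1 and 11.6 in PMSG and was held by WT 1 alone in the PR experiment.

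Lef1 and Tcf7l2 encode nuclear partners of β-catenin, and their windows differed. No start of Lef1 was held in all 8 libraries. The first listed start, at position 131110297 of chromosome 3, lay under an interval in WT 1, WT 2 and KO 1 only. In the hCG libraries the nearest intervals began 659 and 637 bp after that start and were 1608 and 1589 bp wide. Over the same stretch PMSG 1 had intervals of 196 and 738 bp and PMSG 2 of 158 and 749 bp, so all 4 LH libraries held the region chr3:131110934-131112564. PMSG 2 had a further interval of 292 bp closer to the start. The next start, at position 131110323, also lay under the 292 bp interval of PMSG 2. The strongest Lef1 region, chr3:131084926-131085586, lay 25.04 kb before the start and ranked between 78.8 and 98.8 in all 8 lists. Lef1 had no hCG-only region, and its 1 PMSG-only region, chr3:131139421-131139603 in the gene, ranked at 14.005 and 28.4 and was absent from the PR libraries.

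Tcf7l2 had 34 regions, the most of the 10 genes, and its body spans 192 kb. Its strongest region, chr19:55895238-55895833, lay at the inner start rather than the first, with rank percentiles between 91.8 and 98.7 and folds between 14.98 and 18.9 in the 8 lists. The first start was held by all 8 libraries at rank percentiles between 44.2 and 66.5 and widths of 676 to 717 bp. In WT 1 the interval of the strongest region began 109 bp after the inner start, so 7 libraries held that start itself.

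Of its 6 hCG-only regions, 5 lay inside the gene. The strongest, chr19:55768392-55769272, lay 27.0 kb after the first start and ranked at 58.5 and 55.0 in hCG, 70.5 and 76.8 in WT, and 70.9 and 31.2 in KO. The next, chr19:55781574-55782071, ranked at 46.6 and 44.8 in hCG, 57.9 and 69.6 in WT and 36.4 in KO 1, and was absent from KO 2. Between them, chr19:55774336-55774762 was held by all 6 libraries after hCG, at rank percentiles between 16.0 and 44.4. No PMSG interval lay in these 3 places. The only PMSG-only region, chr19:55723613-55723878, lay 18.1 kb before the first start and ranked at 28.1 and 22.1 in PMSG. It was also held by WT 1 (23.4), WT 2 (37.4) and KO 2 (8.46). The 2 WT-only regions, chr19:55803928-55804065 and chr19:55875385-55875565, had mean rank percentiles of 11.3 and 2.71.

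**Figure D4:**
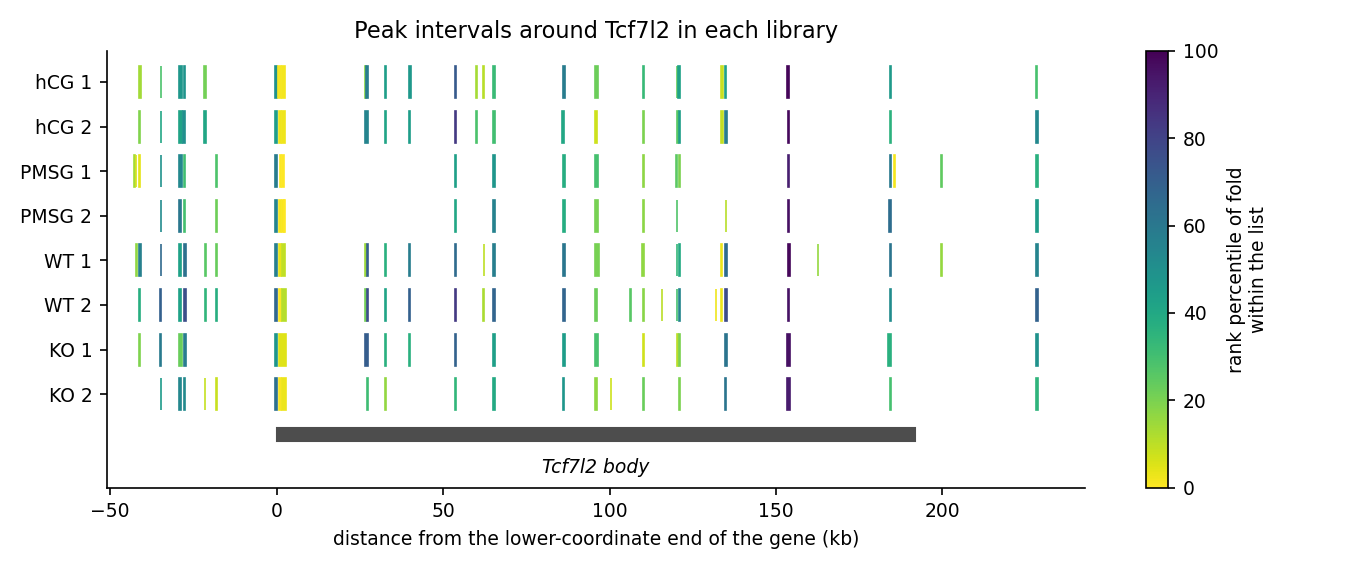
Peak intervals around Tcf7l2 in each library (rows), by distance from the lower-coordinate end of the gene in kb, shaded by the rank percentile of the fold within the list. Intervals near 27, 33 and 40 kb are absent from both PMSG libraries and present in the 6 others, except that KO 2 lacks the one near 40 kb, and the darkest band, at the inner start, is present in all 8.

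Over the 10 windows together the intervals covered 68.3 and 69.4 kb in hCG, 53.0 and 50.7 kb in PMSG, 75.9 and 73.8 kb in WT, and 69.2 and 54.8 kb in KO. As a share of all covered sequence, the ratio of hCG to PMSG was 1.03 and that of WT to KO 0.974, near the medians over all genes of 0.991 and 0.961. Single genes lay on both sides: after Sfrp4, the ratio of hCG to PMSG was highest at Ctnnb1 (1.25) and Wnt4 (1.20), and it was lowest at Fzd4 (0.829) and Fzd1 (0.842). In this share the hCG and PMSG libraries did not overlap at 8 of the 10 genes. It was higher in hCG at 4 (Sfrp4, Wnt4, Ctnnb1 and Tcf7l2) and in PMSG at 4 (Fzd1, Fzd4, Lrp5 and Lef1). Over all genes, hCG was higher in this way at 35.1% and PMSG at 39.2%. Apart from Sfrp4, the ratios of all members lay between the 5th and 95th percentiles over all genes, 0.674 and 1.47. In kb, before division by the library total, the hCG mean was the higher at Fzd1, Fzd4, Lrp5 and Lef1 too. These ratios were 1.09, 1.07, 1.11 and 1.13, below the median of 1.28 over all genes.

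**Figure D5:**
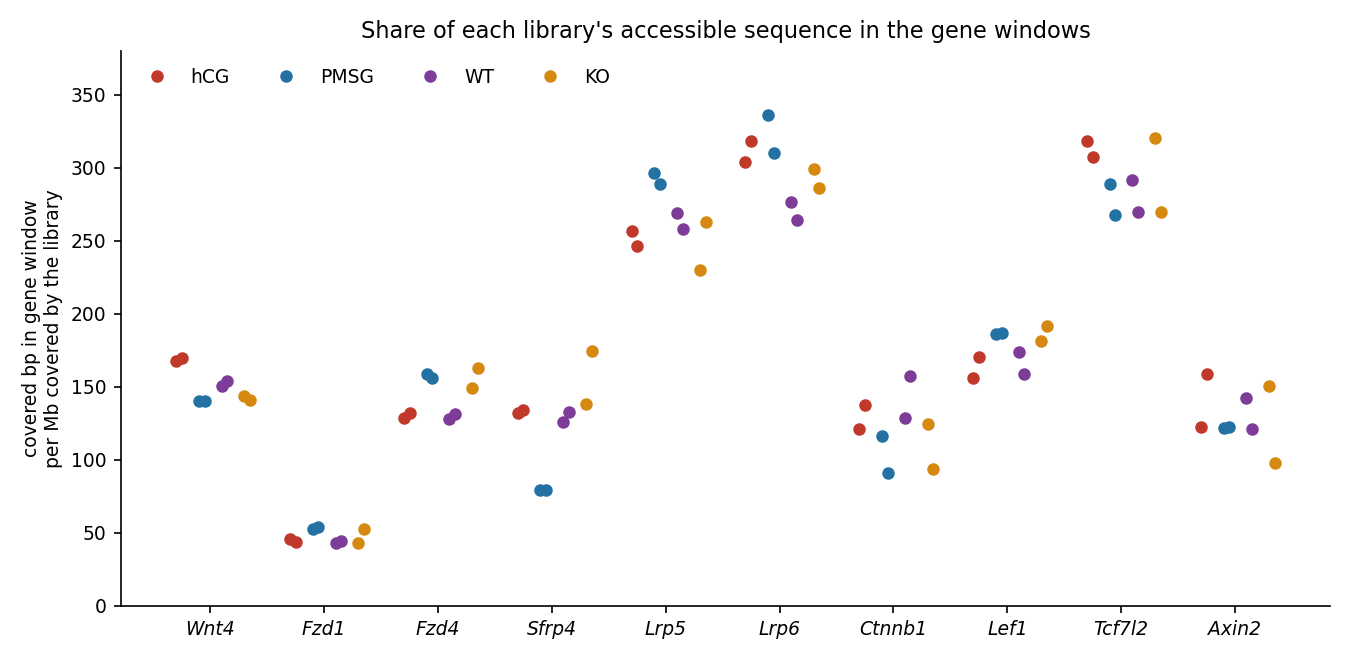
Covered sequence in each gene window, in bp per Mb covered by the whole library (vertical axis), for each gene (horizontal axis). Each point is 1 library, coloured by group. At Sfrp4 (79.0 and 79.5) the PMSG libraries lie below all others. At Wnt4 the PMSG libraries (139.9 and 140.4) lie close to the KO libraries (143.5 and 140.9).

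An interval lay over a start, or over a gene end where no start was listed, in all 8 libraries for 8 of the 10 genes, the exceptions being Wnt4 and Lef1. Of the 7 members with a listed start it was 5. Over all 17274 genes with a listed start, 54.8% had one in all 8. Among all these genes, 1.14% had a start held by both hCG and neither PMSG library and 0.220% the reverse, and no member was of either kind.

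A list of 80 other genes of the pathway was described in the same way. An interval lay over the start in all 8 libraries for 51, in none for 16 and in some for 13. Of the 17274 genes with a listed start, 54.8% had one in all 8. Some of the 80 were read at their gene ends instead, so that share is not a like background for these counts. Around them, 126 of 749 regions (16.8%) were hCG-only and 52 (6.94%) PMSG-only, beside 17.7% and 10.4% over all regions. In the PR experiment 93 of 805 (11.6%) were WT-only and none KO-only, beside 12.1% and 0.0842%. Genes with more hCG-only than PMSG-only regions numbered 47 (58.8%), and those with more PMSG-only numbered 10 (12.5%), where 41.6% and 15.1% of all 21631 genes did so. The rest, 23 of the 80 and 9376 of all genes, had equal numbers, and genes with no region count among them. A region in the windows of neighbouring genes counts for each, so this tally is not the share of regions. With equal list lengths, 99 regions (13.9%) were hCG-only and 78 (10.9%) PMSG-only, beside 15.4% and 13.3%. The genes then numbered 31 (38.8%) and 19 (23.8%), beside 30.0% and 24.4% of all genes. Of the 10 members, 4 had more hCG-only and 4 more PMSG-only regions, and with equal list lengths 4 and 5.

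Tcf7l1, which encodes a TCF factor mostly known as a repressor, had 8 hCG-only and 1 PMSG-only among 34 LH regions, and Gsk3b, the kinase that marks β-catenin for destruction, had 7 and 1 among 15. Among ligands, Wnt1 had 4 hCG-only and no PMSG-only region (3 and 2 with equal list lengths), and Wnt5b had 3 of each (2 and 4). Among receptors Ror1, a Wnt5a receptor, had the most PMSG-only regions, with 2 and 3. Porcn, which lipid-modifies Wnt proteins for secretion, had 4 and none. Of the R-spondin group, which amplifies Wnt signals, Lgr4 had 5 and 2, and Znrf3 4 and 4, but with equal list lengths Lgr4 had none and 2, and Znrf3 2 and 5. The most PMSG-only regions among secreted inhibitors lay around Sfrp1 and Dkk3 (3 each) and among cytoplasmic genes around Btrc (4), whose product is part of a ubiquitin ligase. Cd44 had 3 hCG-only regions and no PMSG-only region. Genes with no interval over a start in any library included the ligands Wnt6, Wnt7b, Wnt8b and Wnt10a, the R-spondins Rspo2 and Rspo4, the receptor Fzd10, and the inhibitors Sfrp5, Dkk4 and Sost. Genes without a listed start, such as Dkk3, Axin1 and Apc, were read at their gene ends, so a start that lies inside those ends was missed.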

How the data were processed

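ATAC-seq peak lists of 8 libraries, 1 list per library and 2 libraries per group, were analysed as deposited in the 10-column narrowPeak layout. The submitters' processing notes name Bowtie2, MACS2 and mm10, without versions; filters and any shift of reads for the Tn5 cut are not given in the sources used here. Peak names of the PR lists mention filtering and marked duplicates and those of the LH lists do not. Column 7 of the deposited lists was read as a fold, the authors' linear ratio of a summit over background. Columns 8 and 9 of the deposited lists hold −log10 values, taken as p and q respectively, and the score deposited in column 5 had no use. The values served only to rank or filter within a list. Read depth is unknown.

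Summits sharing an interval were counted as 1 interval with their best fold, on chromosomes 1 to 19 and X. A rank percentile is the place of that fold within its own list, with 100 the highest. A difference in rank between lists of different lengths cannot be read as a change between groups. Intervals sharing 1 bp or more were merged into regions within an experiment, or over all 8 libraries. Genes, starts and promoter sequence came from RefSeq tables of GRCm38.p6, and coordinates count from 1. Sfrp4, Lrp5 and Lrp6 have no start in the promoter table, so both gene ends were used. Alternatives were a −log10 q of at least 20, equal list lengths (57992 intervals for LH, 55654 for PR), 50% cover, flanks of 10 kb, the gene body alone, and leaving out each replicate. The members, lists and comparisons were chosen with earlier results of these data known. All 10 members are named, with the region over each start, the strongest region of each window and up to 2 regions of each group-only class by mean rank; further regions were named after their values were seen. Of the other pathway genes, those named have the most hCG-only or PMSG-only regions of their class, or no start interval. The merging and calling were tested on simulated lists. Python 3.11.15, numpy 2.4.6, scipy 1.17.1 and matplotlib 3.10.9 were used.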

Additional observations from a re-analysis of the deposited data

How the results depend on the processing

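Without a test, counts were compared with their main value. hCG-only regions numbered 18, against 29 when a library had to cover 50% of a region and 8 in the gene bodies alone. PMSG-only regions numbered 10, against 3 with flanks of 10 kb and 3 in the gene bodies. WT-only regions numbered 19, against 6 with equal list lengths by fold, 6 by −log10 q (an alternative chosen after seeing the data), 12 with 10 kb flanks and 9 in the gene bodies. Leaving out 1 library gave between 23 and 37 WT-only regions, with 37 without WT 1 and 30 without KO 1. The 1 KO-only region became 4 with equal list lengths by fold, 2 by −log10 q and 0 in the gene bodies, and was between 1 and 2 with 1 library left out (2 without KO 1 or KO 2). Regions held by all 8 libraries numbered 67, against 44 with 50% cover, 38 with 10 kb flanks and 31 in the gene bodies. The ratio of hCG to PMSG covered share was 1.10 in the gene bodies. Shorter windows hold fewer regions by construction. Leaving out a library loosens the rule for a group-only call, and the 50% rule can only lower the number held by all 8. For the rest the cause was not tested. The other 60 recomputed values stayed within 1.5 times their count or 1 SD of their ratio. No paired analysis was possible because the results come from no test, and the labels tie no replicate number to a shared animal or batch. Depth is unknown, and 2 libraries per group give little measure of spread. A region in a window may belong to a neighbouring gene.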
